A study of Mus musculus with 3 samples.

Results

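The nonsense-mediated decay (NMD) isoforms of the GENCODE M21 annotation are transcripts whose reading frame ends well before the last splice junction, and that are therefore predicted to be destroyed after translation. They were taken as all 7186 transcripts of the annotation's biotype nonsense_mediated_decay, out of 141767 transcripts in the deposited tables, and all 7186 were matched by identifier between the 2 transcript tables of each library. They belong to 4576 genes, of which 4574 are protein-coding and 2 are polymorphic pseudogenes. For 2987 genes there is 1 such isoform, and the highest number is 18, in the bicarbonate transporter gene Slc4a7. For each gene and library, the NMD share is the percentage of the gene's TPM (a molar measure, divided by transcript length and scaled to a fixed sum per library) that the tables assign to these isoforms. Shares were read in genes with at least 1 TPM in all 3 libraries in both tables, which 2167 of the 4576 genes passed and 2409 did not. The lowest gene TPM just inside the limit were 1.00134 for Senp1 and 1.00145 for Crtc3, and just outside it stood Mtfr1 at 0.997918 and Arhgap6 at 0.997651.

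NMD is a translation-dependent quality control of mRNA. A ribosome that stops upstream of an exon junction leaves the protein complex of that junction on the mRNA, the helicase Upf1 is phosphorylated there by the kinase Smg1, and Smg5 and Smg6 help to bring about decay. Cells also use it as a switch: SR splicing factors promote the inclusion of a so-called poison exon in their own mRNA, whose stop codon sends that mRNA to decay, so that the protein limits its own amount. A level measured in RNA gives what remains after decay, and synthesis and decay cannot be told apart from it.

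The libraries are total RNA-seq after ribosomal RNA depletion, from the cytosol of bone-marrow-derived macrophages of C57BL/6J mice, primary cells grown in culture from marrow precursors. All 3 libraries had the same treatment, 20 min with 100 ng/ml Lipid A, the membrane anchor of lipopolysaccharide, which Tlr4 senses. Age and sex were not collected, per the labels, and no genetic change is named. The 3 replicates carry the same donor identifier, so the SD given throughout (n = 3) measures a spread between samples that may be partly technical. Untreated cells, later times and nuclear RNA are not analysed here. With 1 condition there is no comparison between groups, and 3 libraries could not pass an exact two-sided sign-flip test, whose smallest p is 0.25. The first transcript table, derived from alignments, held 27277685, 81497604 and 37124108 expected counts in replicates 1, 2 and 3. The second, derived directly from the reads, held 32961028, 99317204 and 49482904 estimated counts. Of 8 macrophage markers 8 reached 1 TPM in every library, with a summed level of 4859 to 7009 TPM. Of 4 neutrophil markers 3 did so (18.1 to 26.7 TPM summed, S100a9 highest at a mean of 13.1 TPM), and none of the markers of T and NK, B, dendritic, mast, fibroblast, endothelial or erythroid cells did. The part of neutrophil RNA in the shares was not tested.

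The poison exons of SR proteins are shown first, as the best known case of such isoforms. Each of the following lines gives the stretch of an exon that the NMD isoform has and the gene's highest protein_coding isoform lacks, read 5′ to 3′ from the start of the exon to the premature stop codon, which stands in capitals. The sequences are those of the GENCODE M21 transcripts on mm10. Tra2b-206 holds it in exon 2 of 10, 276 bases long, at chr16:22258986-22259261 on the minus strand. Tra2a-202 holds it in exon 2 of 9, 306 bases, at chr6:49252803-49253108 (minus). Srsf3-201 holds it in exon 4 of 7, 456 bases, at chr17:29039454-29039909 (plus), and Srsf7-203 in exon 4 of 9, 460 bases, at chr17:80204622-80205081 (minus). Srsf6-201 holds it in exon 3 of 7, 268 bases, at chr2:162932815-162933082 (plus).
Tra2b-206: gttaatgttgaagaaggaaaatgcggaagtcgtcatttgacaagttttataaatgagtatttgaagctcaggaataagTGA
Tra2a-202: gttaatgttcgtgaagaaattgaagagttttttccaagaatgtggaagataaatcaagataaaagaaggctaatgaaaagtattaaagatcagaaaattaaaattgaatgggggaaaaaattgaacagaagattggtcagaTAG
Srsf3-201: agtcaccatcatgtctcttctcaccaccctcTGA
Srsf7-203: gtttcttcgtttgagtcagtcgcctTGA
Srsf6-201: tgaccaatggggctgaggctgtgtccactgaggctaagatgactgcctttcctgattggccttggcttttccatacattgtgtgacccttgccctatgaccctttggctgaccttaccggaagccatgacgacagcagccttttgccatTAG

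In a second set the same kind of exon sits in genes that do not encode splicing factors but had some of the highest NMD shares. Ostf1-205 has it in exon 3 of 11, 77 bases long, at chr19:18598913-18598989 (minus), and Atp5f1-203 in exon 3 of 8, 167 bases, at chr3:105957870-105958036 (minus).
Ostf1-205: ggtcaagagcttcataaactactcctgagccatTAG
Atp5f1-203: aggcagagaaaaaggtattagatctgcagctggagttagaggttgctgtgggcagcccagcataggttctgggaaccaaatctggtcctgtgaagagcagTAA

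In another kind of NMD isoform a few bases at an exon end shift the reading frame. The next pair of lines shows this for Ppia-201 and the gene's highest protein_coding isoform, Ppia-202, within chr11:6415960-6418243 (plus). The stretch runs from 20 bases before the end of the first exon of Ppia-202 to the stop codon of Ppia-201. In full, Ppia-201 has 746 bases and Ppia-202 has 1170, of which 427 lie upstream of Ppia-201. The capitals inside mark the 5 bases by which the first exon of Ppia-201 ends further downstream. The capitals at the end mark the stop codon that the shifted frame meets.
Ppia-201: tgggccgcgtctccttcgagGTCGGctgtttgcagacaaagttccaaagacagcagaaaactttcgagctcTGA
Ppia-202: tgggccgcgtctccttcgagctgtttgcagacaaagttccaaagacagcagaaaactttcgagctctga

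As a class, NMD isoforms held a small and steady part of the mRNA. Their share of the summed TPM of protein-coding genes was 1.54%, 1.57% and 1.53% in replicates 1, 2 and 3 of the first table (1.55% ± 0.021). In the second table it was 1.81%, 1.85% and 1.75% (1.81% ± 0.0516). The 3 libraries of the first table all lay below those of the second. Retained-intron isoforms, which keep an intron in the mature transcript and are mostly held in the nucleus, took 3.03% ± 0.215 and 3.68% ± 0.254 in the same tables. By counts, which give long transcripts more weight, NMD isoforms held 1.14% ± 0.0198 and 1.32% ± 0.0131.

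Few single NMD isoforms were abundant. At least 1 TPM in all 3 libraries was reached by 408 of the 7186 NMD isoforms in the first table, by 197 in the second and by 166, of 156 genes, in both. All protein-coding genes together held 254415, 223751 and 204271 TPM of the fixed sum of the first table in replicates 1, 2 and 3, and 107226, 90804 and 69843 TPM of the second, so the same limit is stricter in the second table. At 0 TPM in every library and both tables were 2024 isoforms (28.2%), of which 441 belong to genes that passed. An exact 0 here may be a failed split between isoforms and not an absent RNA. The same counts over all transcripts were not made, so these numbers do not set NMD isoforms apart from other transcripts. The deposited interval of the first table (its level is not given) had a lower bound of at least 1 TPM in all 3 libraries for 271 of the 408 isoforms, and an upper bound at most 2 times the lower in 249.

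Per gene, the typical NMD share was low and a minority of genes had a large one. The median over the 2167 genes was 1.47%, 1.63% and 1.70% in replicates 1, 2 and 3 of the first table and 2.43%, 2.57% and 3.00% in the second. A share of at least 10% in all 3 libraries and both tables was found in 324 genes (15.0%). Single tables gave 411 genes (19.0%) and 452 genes (20.9%). At 50% or more stood 37 genes (1.71%). Bulk RNA cannot tell apart a low share in all cells and a high share in some. The SD of the share over libraries had a median of 3.23 points in the first table and 3.26 in the second among the 324 genes. For the share of their highest protein_coding isoform it was 3.51 and 3.03 points. Both shares are parts of the same gene total, so their SDs are tied and the second is no independent yardstick. At the median SD of the NMD share, differences of a few points among the 324 genes are within the spread of 3 libraries. For genes of lower share this spread was not summarised.

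The median share was lower in genes of higher level, while the part of genes at 10% or more showed no such order. Genes at 1 to 10 TPM had median shares of 2.20% and 3.24% in the 2 tables, and genes at 100 TPM or more 0.352% and 0.728%. Of the 1164 genes at 1 to 10 TPM 15.4% had a share of at least 10%. The percentages were 14.9 for 718 genes at 10 to 30 TPM, 12 for 217 genes at 30 to 100 TPM, and 17.6 for 68 genes at 100 TPM or more.

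SR proteins, which bind exons and recruit the spliceosome, had a median share above that of all genes. Of 13 genes in the list 11 have an NMD isoform and all 11 passed the TPM limit. Their median share was 4.26% in the first table and 12.6% in the second, beside 1.72% and 2.71% over all genes, and 2 of 11 were at 10% or more throughout (18.2%, beside 15.0% of all genes). The 2 were Srsf2 and Tra2b. By counts 0 of 11 were, beside 11.5% of all genes. Tra2b, a Tra2 relative of the family that activates exons with GA-rich enhancers, had 13.7%, 13.7% and 10.8% of its TPM in NMD isoforms in the first table. In the second it had 23.5%, 24.1% and 19.1%, with replicate 3 lowest in both. By counts the NMD share of Tra2b was 6.89% and 15.0%. The poison exon isoform printed above, Tra2b-206, stood at 1.48, 1.66 and 1.51 TPM in the first table and 1.45, 1.41 and 1.10 TPM in the second. The deposited interval of Tra2b-206 in replicate 1 ran from 0.78 to 2.01 TPM.

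Srsf2, which encodes the splicing factor SC35, had shares of 31.0%, 34.1% and 27.7% in the first table and 23.6%, 26.1% and 17.6% in the second, replicate 3 again being lowest. Its leading NMD isoform, Srsf2-204, has the same stop codon as the coding isoform Srsf2-201, with splice junctions after it. Srsf2-204 is 620 bases long against 1899, and by counts the NMD share of Srsf2 was 9.97% and 6.61%. Srsf3 had 10.5%, 10.2% and 8.22% in the first table and 18.6%, 18% and 16.2% in the second, so that 1 library of 1 table kept it below 10%. Tra2a had 7.51%, 5.67% and 5.99% against 18.1%, 12.2% and 19.2%.

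Srsf6 differed most between the tables within this family. Its NMD share was 6.61%, 3.67% and 2.51% in the first table and 44.7%, 47.5% and 31.3% in the second, from 61, 93 and 34 expected counts against 568, 1704 and 528 estimated counts. The tables do not overlap for this gene, and its place among the SR proteins rests on the table used. Srsf6-201 has no base of its own and 1 junction of its own among the transcripts of the gene. Srsf4 had 9.68% ± 3.04 and 12.6% ± 3.80. Srsf11, Srsf7, Srsf1, Srsf9 and Srsf5 all had means under 6% in both tables, with Srsf5, at 51.6 TPM the highest expressed SR gene of these, lowest at 0.149% ± 0.139 and 0.101% ± 0.115.

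**Figure D1:**
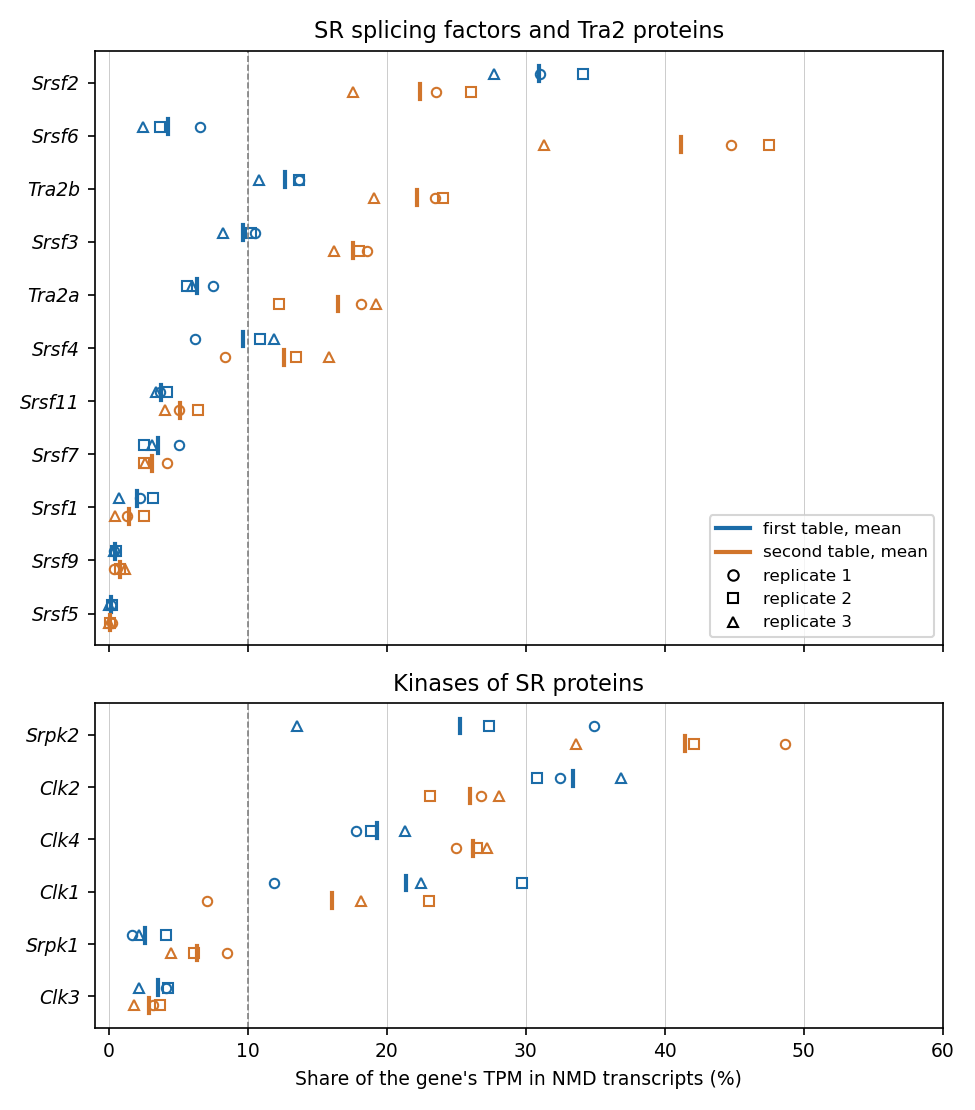
Share of each gene's TPM in NMD isoforms (x axis, percent) for the 11 SR splicing factor genes and 6 SR kinase genes that passed the TPM limit. Open symbols are the 3 libraries, bars their means, blue the first table and orange the second, and the dashed line marks 10%. Srsf2, Tra2b, Clk2, Clk4 and Srpk2 have all 6 symbols right of the line, while those of Srsf6 fall on both sides of it.

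Kinases that phosphorylate SR proteins had the highest median of the lists, 20.3% in the first table and 21% in the second, over the 6 of 7 genes that have an NMD isoform. At 10% or more in every library and both tables were 3 of 6 genes (50%, beside 15.0% of all genes), which are Clk2, Clk4 and Srpk2. By counts Clk4 was below it and 2 of 6 remained (33.3%, beside 11.5% of all genes). Clk2, a nuclear kinase of the Cdc2-like family, had 32.5%, 30.8% and 36.8% in the first table and 26.8%, 23.1% and 28.1% in the second. Clk4 had 17.8%, 18.9% and 21.3% against 25.0%, 26.5% and 27.2%, and by counts 8.4% and 13.2%. These genes were expressed at a few TPM (4.90 ± 0.642 for Clk2 and 4.75 ± 0.497 for Clk4, first table), and the NMD isoforms of Clk4 rested on 23, 69 and 45 expected counts.

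Clk1 had the lowest share in replicate 1 of both tables, at 11.9%, 29.8% and 22.4% in the first and 7.05%, 23.1% and 18.1% in the second. Its leading isoform Clk1-210 lacks 91 bases of the coding isoform, and its stop codon lies 809 bases before the last junction. Srpk2, a cytoplasmic kinase of SR proteins, had 34.9%, 27.4% and 13.6% against 48.7%, 42.1% and 33.6%, with replicate 3 lowest. Srpk1 (2.65% ± 1.29 and 6.40% ± 2.04) and Clk3 (3.54% ± 1.19 and 2.91% ± 0.966) were low in both tables.

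Among 45 hnRNP proteins and other splicing regulators, 27 passed and 7 were at 10% or more (25.9%, beside 15.0% of all genes), with medians of 3.69% and 5.26%. By counts 6 of 27 were (22.2%, beside 11.5% of all genes), which are all of the 7 but Rbm39. Hnrnpu, which encodes a large nuclear RNA-binding scaffold protein, had the highest share of the abundant genes at 76.8%, 79.2% and 73.4% in the first table and 77.1%, 82.0% and 70.2% in the second. Nearly all of it was 1 isoform, Hnrnpu-206, at 44.4 ± 5.14 TPM in the first table. The annotation tags Hnrnpu-206 as a readthrough transcript, its stop codon lies in exons of the coding isoform Hnrnpu-201 outside the coding sequence, and within its own span it lacks 4994 exonic bases of Hnrnpu-201. The NMD share of Hnrnpu by counts was 56.0% and 61.8%. Tardbp, the gene of the RNA-binding protein TDP-43, which binds its own mRNA and limits its amount, had 41.6%, 38.7% and 37.2% against 38.2%, 36.8% and 36.7%. Hnrnpdl had 33.2% ± 4.34 and 43.5% ± 5.68, and its leading isoform has the same stop codon as the coding one. The other genes at 10% or more, picked with their values known, were Hnrnpll (27.2% ± 2.30 and 40.7% ± 3.92), Hnrnpd (34.8% ± 2.72 and 22.3% ± 2.77), Rbm39 (16.7% ± 1.68 and 29.4% ± 1.37) and Hnrnpa1 (23.3% ± 3.52 and 22.8% ± 3.98).

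The 21 core spliceosome genes that passed had medians of 4.72% and 5.80%, beside 1.72% and 2.71% over all genes, and 0 of 21 were at 10% or more in all libraries and both tables, beside 15.0% of all genes. By counts, averaged over both tables, the median was 1.33% beside 1.24% for all genes. At 10% or more by counts was 1 of 21 (4.76%, beside 11.5% of all genes), Sf1, picked with its values known. Ddx5, a DEAD-box helicase, came near it with 9.53%, 7.84% and 15.6% in the first table and 23.7%, 23.5% and 27.5% in the second. Luc7l, a U1-associated factor, had 23.4%, 18.6% and 9.26% in the first table and 17.8%, 14.5% and 7.67% in the second. By TPM only replicate 3 was below 10%, but by counts Luc7l had means of 8.23% and 7.14%. Luc7l-206 has 1672 bases against 4934 of the coding isoform. Prpf38b stood at 11.5% ± 3.77 and 14.4% ± 2.69.

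Of all 7118 genes that reached the TPM limit, 30.4% have an NMD isoform. Among the genes of the decay pathway itself it was 2 of 10 NMD factors (20%) and 0 of 8 exon junction and release factors that reached the limit, lists too short to be set apart from all genes. Smg5 had 0.950% ± 0.30 and 2.62% ± 0.582. Smg1 was listed at 0 in all 3 libraries of the first table and had 0.826%, 9.96% and 6.87% in the second. Among 10 mRNA decay enzymes that passed, 2 were at 10% or more (20.0%, beside 15.0% of all genes) and by counts 0 were, beside 11.5%. The 2 are both subunits of the CCR4-NOT deadenylase, which shortens poly(A) tails. Cnot2 had 15.2%, 16.2% and 13.6% against 24.1%, 25.7% and 24.5%, and by counts 11.2%, 9.66% and 8.0% in the first table. Cnot1, its scaffold, had 12.2%, 17.0% and 17.0% against 16.9%, 23.2% and 19.7%, but by counts the first table gave 3.46% for Cnot1, whose leading NMD isoform, Cnot1-212, has 956 bases against 8390. Cnot1-212 stood at 1.78, 1.84 and 1.97 TPM in the first table and at 0, 0.0304 and 0 TPM in the second, so that the shares of both tables come from different isoforms. Pan3 stood at 11.6% ± 0.51 and 10.3% ± 1.49. The 1 gene of the 15 stress and decay-sensitive genes that has an NMD isoform and passed, Ifrd1, was listed at 0 in the first table and had 4.88% ± 1.18 in the second.

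Polyamine regulators, several of which are controlled through translation or splicing by the polyamines themselves, had medians of 6.95% and 7.61% over 6 genes, with 1 of 6 at 10% or more (16.7%, beside 15.0% of all genes). That gene was Sms, which encodes spermine synthase, with 45.0%, 51.7% and 47.9% in the first table and 50%, 59.8% and 51.6% in the second. By counts Sms had 27.2% and 33.3%, and Sms-204 has 1540 bases against 3717 of the coding isoform. Odc1, the first enzyme of the pathway, had 13.5%, 18.9% and 16.5% against 8.18%, 10.9% and 11.6%. Sat1, the acetyltransferase that starts polyamine breakdown, had 8.41%, 8.25% and 7.21% against 10%, 9.65% and 8.79%. Its leading NMD isoform carries an exon of 110 bases that the coding isoform lacks, and the SD over libraries was 0.649 and 0.639 points.

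Genes of the response to Lipid A and of macrophages came next. Of 50 immediate-early and early NF-kB genes that reached the TPM limit 6 have an NMD isoform (12%), as do 5 of 23 genes of the Tlr4 pathway (21.7%) and 5 of 34 macrophage genes (14.7%), beside 30.4% of all genes. At 10% or more throughout were 0 in each list, beside 15.0% of all genes, which in lists of 5 or 6 genes does not set them apart. The NF-kB genes had medians of 0.809% and 0.785%. Nfkb1, a subunit of NF-kB, had 9.20%, 12.9% and 3.83% in the first table and 2.18%, 0.592% and 0% in the second. Klf6 had 1.09% ± 0.0729 and 6.95% ± 2.16, and Rela, another subunit, 0.567% ± 0.491 and 3.88% ± 2.03. The 3 highest of the Tlr4 pathway were the kinase genes Irak2 (1.36% ± 0.291 and 2.25% ± 1.33), Ikbkb (1.80% ± 1.55 and 1.52% ± 1.64) and Map3k8 (1.41% ± 1.28 and 1.77% ± 1.90).

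The 5 macrophage genes with an NMD isoform had medians of 0.379% and 0.727%. Fcgr1, the high-affinity IgG receptor, had 2.02%, 5.08% and 1.59% in the first table but 27.8%, 28.4% and 24.2% in the second. Fcgr1-202 has 600 bases and Fcgr1-201 has 2589, and by counts the second table gave 5.47%. Gpnmb, a glycoprotein of lysosomes, at 2192 TPM among the most abundant mRNAs, had 0.379% ± 0.213 and 0.741% ± 0.156. Tyrobp, the ITAM adaptor DAP12, had 0.522% ± 0.0696 and 0.727% ± 0.075.

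Ribosomal protein genes were divided. Of 81 genes 19 have an NMD isoform and passed, 4 of them (21.1%, beside 15.0%) were at 10% or more, and the median was 0.687% in the first table and 1.73% in the second, below that of all genes. Rpsa, Rpl12 and Rpl13a are among the 4. Rpsa, a small-subunit protein also known as the laminin receptor, had 55.8%, 52.5% and 56.4% against 73.6%, 72.4% and 72.0%. By counts Rpsa had 38.7% and 60.5%. Rpsa-206 has 73 bases that no other transcript of the gene has. Rpl12, of the large subunit, had 43.8%, 26.4% and 31.5% against 55.9%, 64.3% and 61.0%. The level of Rpl12 was 174 ± 40.5 TPM in the first table but 1.85 ± 0.197 in the second, whose shares thus rest on little signal (65, 305 and 139 estimated counts in NMD isoforms). Ribosomal protein genes and Ppia have many near-identical pseudogene copies, so the split of their reads is uncertain.

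**Figure D2:**
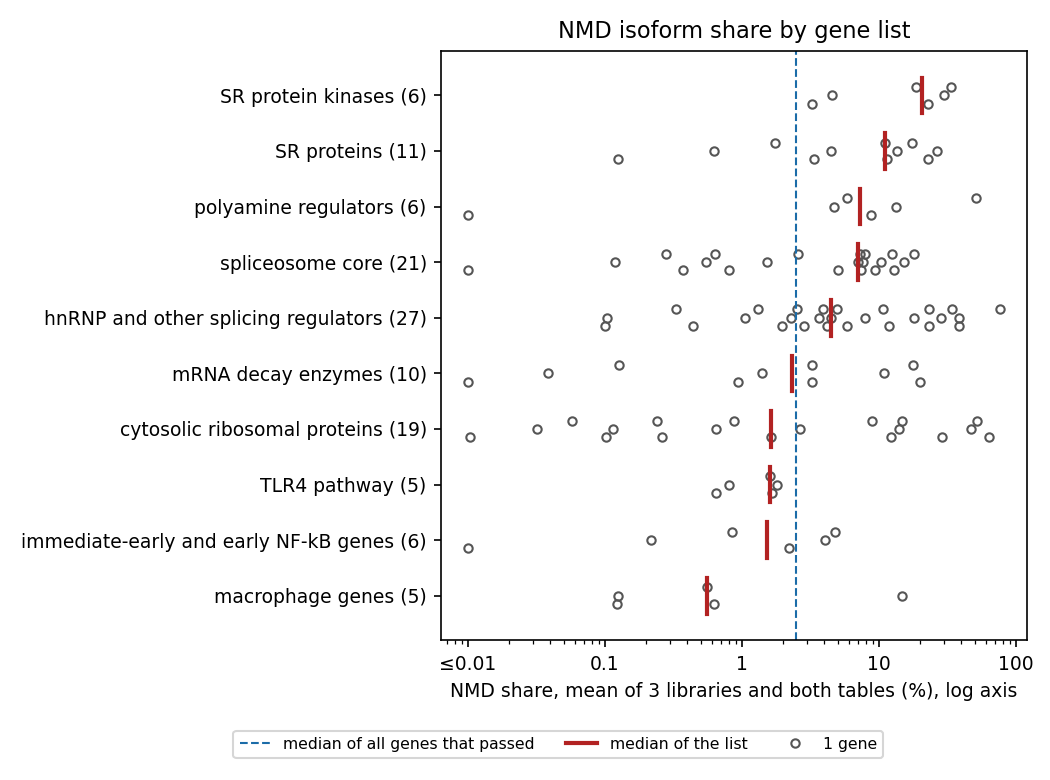
NMD share (x axis, percent on a log axis, mean of 3 libraries and both tables) of the genes that passed, by gene list, for the 10 lists with 5 or more such genes (number in brackets). Circles are genes, with values of 0.01% or less drawn at the left end, red bars are list medians, and the dashed line is the median of all 2167 genes, 2.49%. The medians of 5 lists lie right of the line, with SR protein kinases highest at 20.8%.

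The highest shares among abundant genes came from a mixed set. In genes with at least 10 TPM in all libraries and both tables and a share of at least 10%, the 10 highest include Hnrnpu, Ppia, Ostf1, Rpsa, Eif4a2, Rgs1, Lilrb4a, Oasl2 and Atp5f1. Ostf1, an SH3-domain protein first described in osteoclasts, had 63.5%, 62.9% and 65.0% in the first table and 64.5%, 63.4% and 65.4% in the second. All 6 values lie between 62.9% and 65.4%, and counts gave 65.8% and 69.3%. Ostf1-205, whose poison exon is printed above, stood at 81.8, 79.2 and 73.9 TPM in the first table, with a deposited interval of 76.9 to 82.5 TPM in replicate 1. All 77 bases of that exon and 2 junctions occur in no other transcript of Ostf1.

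Atp5f1, a subunit of the mitochondrial ATP synthase, had 48.3%, 51.7% and 48.8% against 50.3%, 46.8% and 43.1%, and the 167 bases of its poison exon are likewise its own. Rgs1, which shortens the signal of G-protein-coupled chemokine receptors, had 60.3%, 58.0% and 58.4% against 62.4%, 59.4% and 62.5%. A further 36.7% and 37.0% of Rgs1 TPM was in retained-intron isoforms. Lilrb4a, an inhibitory receptor of myeloid cells, had 62.1%, 61.0% and 50.8% against 52.2%, 60.5% and 38.4%, replicate 3 being lowest. Retained-intron isoforms held a further 32.9% and 48.3% of Lilrb4a TPM. Eif4a2, a helicase of translation initiation, had 69.8% ± 4.49 in the first table and 55.3% ± 4.13 in the second. By counts Eif4a2 had 76.6% and 64.3% and Rgs1 65.3% and 73.0%, higher than by TPM. Oasl2, an interferon-induced relative of the oligoadenylate synthetases, had 59.7% ± 1.49 and 47.5% ± 1.21. For Eif4a2 and Oasl2 the libraries of the first table all lay above those of the second.

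The isoform with the highest TPM of the class was Ppia-201, of the gene of cyclophilin A, a proline isomerase. It stood at 289, 282 and 212 TPM in the first table and 106, 90.9 and 57.4 TPM in the second, which is 66.0%, 67.4% and 65.5% of Ppia against 71.1%, 72.9% and 70.8%. By counts the NMD share of Ppia was 52.1% and 60.7%. As printed above, Ppia-201 has 1 junction and no base that other transcripts of the gene lack, and Ppia-202 begins 427 exonic bases further upstream. Ostf1-205 (78.3 ± 4.02 TPM) and Rpsa-206 (77.6 ± 10.2) were also high in the first table. Rpl13a-205 had 85.5, 16.8 and 32.6 TPM there, a wide spread, while Rpl13a-216 had 47.1, 45.1 and 37.4. Rgs1-204, Lilrb4a-205, Hnrnpu-206 and Eef1b2-205 were also among the 10 highest, with means of 43.5 to 49.2 TPM in the first table. Eef1b2 is a subunit of an elongation factor complex, and its NMD share was 43.3% ± 1.43 and 49% ± 1.65.

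**Figure D3:**
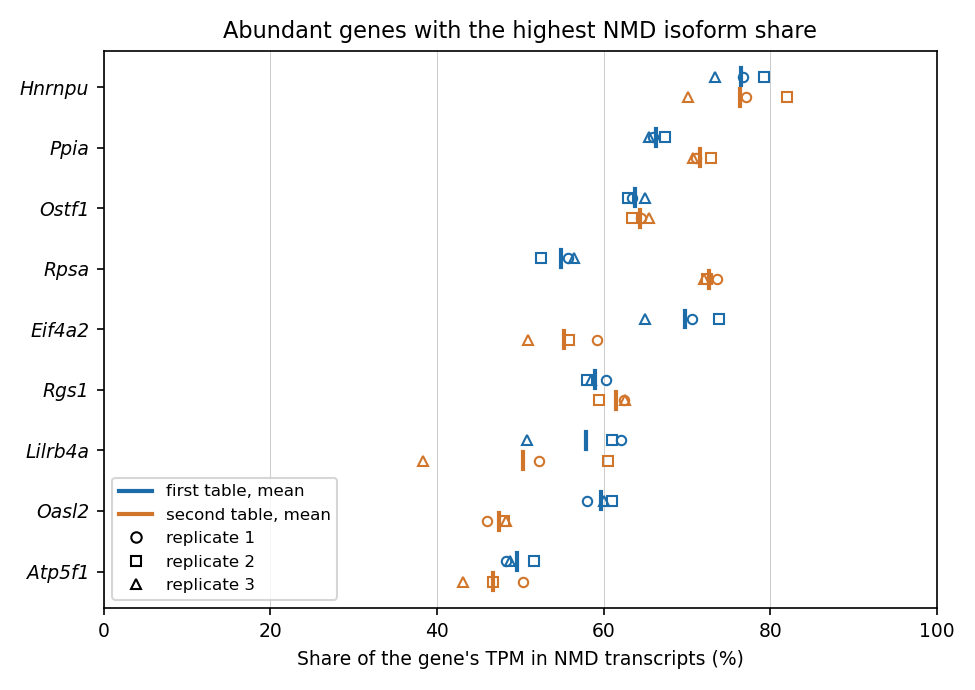
NMD share (x axis, percent of the gene's TPM) of 9 of the 10 abundant genes with the highest mean share. Open symbols are the 3 libraries, bars their means, blue the first table and orange the second. Both tables overlap for Hnrnpu and Ostf1, and differ without overlap for Ppia, Rpsa, Eif4a2 and Oasl2.

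Many of the 37 genes at 50% or more were expressed at lower levels, and those described here were picked with their values known. Styx, which encodes a catalytically inactive phosphatase, had 98.7%, 95.6% and 96.7% in the first table and 98.3%, 95.2% and 96.3% in the second, at 5.15 TPM. The genes of mitochondrial ribosomal proteins Mrpl32 (89.8% ± 0.509 and 91.2% ± 0.724), Mrps14 (86.9% ± 2.03 and 86.1% ± 2.73) and Mrpl3 (68.8% ± 3.54 and 72.7% ± 3.02) were among the 37. Ndufs4, of respiratory complex I, had 74.2%, 68.9% and 69.7% against 78.4%, 75.5% and 75.6%. Bak1, an effector of apoptosis at mitochondria, had 68.6%, 82.7% and 82.0% against 51.2%, 65.9% and 59.0%. The tables do not overlap for Ndufs4 and Bak1, in opposite directions. Cenpa, the histone H3 variant of centromeres, had 55.2% ± 2.98 and 59.6% ± 3.14.

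Some high shares follow from how transcripts are annotated. Gm20716 had 100% because its only transcript has the biotype. Gm38394 had exactly 50% in all 3 libraries of both tables, since Gm38394-202 and the coding transcript Gm38394-201 have the same exons. Such pairs exist for 25 NMD isoforms, 9 of them in genes that passed, and in all 25 the 2 transcripts were given equal TPM in every library and both tables. Besides Gm38394, 1 of the genes at 10% or more holds such a pair, Rin2, where both had 2.06, 1.80 and 1.35 TPM in the first table. All 3 genes were picked with their values known.

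The structure of the isoforms was read from the annotation, whose biotype also chose the members. The biotype stands for a stop codon well before the last junction, so the distances of the stop codons describe that definition and are no separate result. Of 7184 isoforms with an annotated stop codon 7150 have it at least 50 bases before the last junction, 21 closer than that and 13 in the last exon, and the median distance was 335 bases. The leading NMD isoform of a gene (highest mean TPM) was shorter than the gene's highest protein_coding isoform in 1817 of 2166 genes (83.9%), and in 238 of 323 genes with a share of 10% or more (73.7%). Its median length was 0.535 times that of the coding isoform, or 0.703 times among the genes at 10% or more. The coding isoform reached at least 300 bases beyond the ends of the NMD isoform in 70.1% and 61.3% of these genes. Incomplete 5′ ends were annotated for 29.2% of leading isoforms and for 19.8% of those in genes at 10% or more, and transcript support level 1, the best level, for 29.0% and 45.4%.

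The isoforms were also sorted by how much of their sequence is their own. Among 925 genes whose leading NMD isoform has bases that no other transcript of the gene has, 12.3% had a share of at least 10%. The percentage was 15.0 for 1015 genes whose leading isoform has only a junction of its own, and 25.6 for 227 genes where it has neither. Clk1-210, Srsf2-204, Eif4a2-210 and Lilrb4a-205 are among the last kind, and Ostf1-205 and Atp5f1-203 among the first. By position of the stop codon, 29 of 99 genes (29.3%) whose leading isoform has the stop codon of the coding isoform were at 10% or more. It was 182 of 1227 (14.8%) where the stop falls inside the coding sequence of the main isoform, and 108 of 820 (13.2%) where it lies in sequence that the main isoform lacks.

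The 2 tables, made from the same reads, ordered the genes alike but gave single genes different shares. Spearman's rho across the 2167 genes was 0.847, given as a description since genes are not independent replicates. Within 2 points of each other were 1354 genes (62.5%), and 267 differed by 10 points or more, 157 with the second table higher and 110 with the first. All 3 libraries of the second table lay above those of the first in 514 genes (23.7%), and the reverse held in 190 (8.77%). Among the 11 SR genes it was 4 and 1.

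The 5 abundant genes with the largest difference of means were Selenok, Wdr26, Arf4, Rap1a and Myof. Selenok, a selenoprotein of the endoplasmic reticulum, had 16.1%, 9.43% and 1.00% in the first table and 49.4%, 51.3% and 47.3% in the second. The first table had 142, 243 and 10 expected counts behind this and an interval for Selenok-203 of 1.38 to 7.66 TPM in replicate 1. Wdr26 had 6.25% ± 2.29 and 37.0% ± 2.99, the small GTPase gene Rap1a 6.18% ± 2.53 and 35.6% ± 3.61, and the trafficking GTPase gene Arf4 16.7% ± 5.41 and 46.6% ± 7.57. Myof, a membrane repair protein, went the other way, at 30.4%, 26.1% and 27.3% in the first table and 3.23%, 0.220% and 0.427% in the second. By counts the first table gave 4.03%, and Myof-205 has 863 bases against 6633 of Myof-211. The coding isoform Myof-211 extends 5014 exonic bases upstream of Myof-205.

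**Figure D4:**
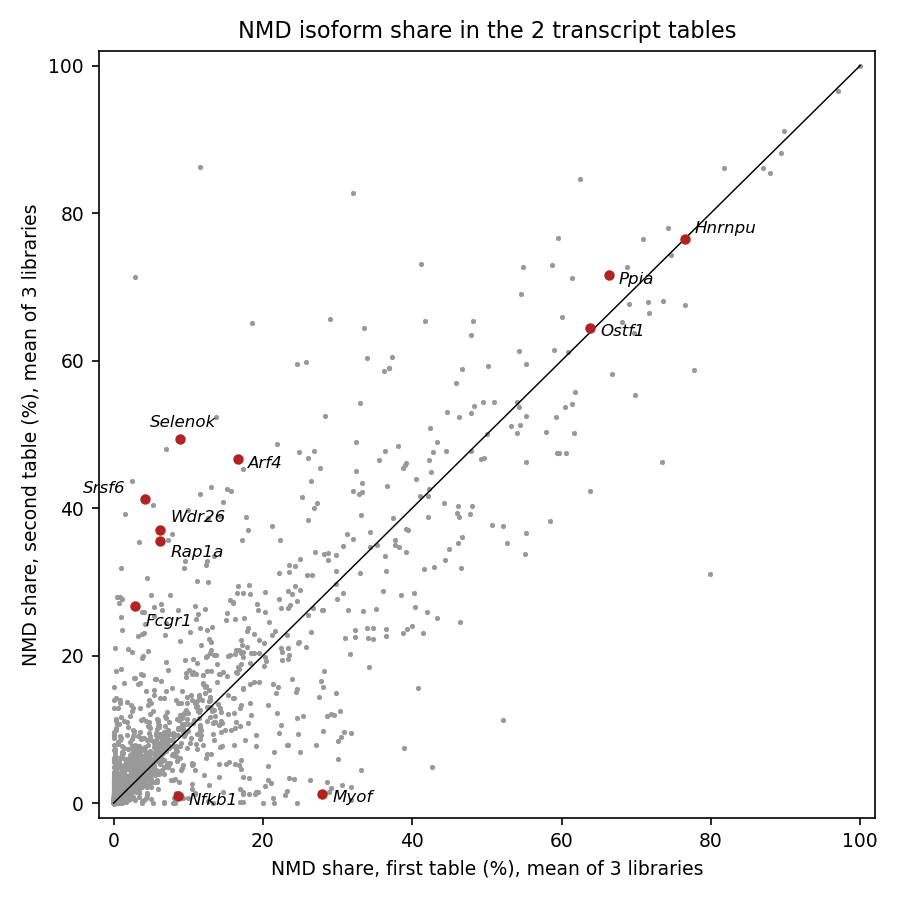
Mean NMD share over 3 libraries in the first table (x axis, percent) and the second table (y axis, percent) for 2167 genes, with the line of equal shares. Red points are named: Hnrnpu, Ostf1 and Ppia lie near the line, Srsf6, Fcgr1, Selenok, Wdr26, Rap1a and Arf4 above it, and Myof and Nfkb1 below it.

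Libraries differed little in NMD share and more in retained introns. The median NMD share was lowest in replicate 1 and highest in replicate 3 in both tables, over a range of 1.47% to 1.70% and of 2.43% to 3.00%. This order depends on the summary used. The class share of summed TPM was lowest in replicate 3 of both tables (1.53% and 1.75%), as was the 90th percentile of the share per gene (25.3% and 28.6%). The median retained-intron share over the genes with such isoforms was 1.31%, 1.18% and 2.67% in replicates 1, 2 and 3 of the first table and 2.29%, 1.93% and 4.26% in the second. Malat1, a nuclear noncoding RNA, was also highest in replicate 3, at 1412, 1108 and 3736 TPM after rescaling over protein-coding genes in the first table, and Neat1 at 125, 106 and 411. The part of nuclear RNA in the NMD shares was not tested. Genes with a share of exactly 0 were 31.9%, 21.4% and 28.0% in the first table, fewest in replicate 2, which had the most counts.

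The depth of a library sets how finely the share of a gene can be read. The NMD isoforms of a gene that passed had a median of 8.15, 26.9 and 11.9 expected counts in replicates 1, 2 and 3 of the first table and 15.5, 48.4 and 24.4 estimated counts in the second. Among abundant genes, the largest SD over libraries, taking the smaller of both tables, was that of Vps29, a retromer subunit, with 5.68%, 17.8% and 6.23% in the first table and 10.4%, 22.8% and 7.65% in the second. Its NMD isoforms had 73, 677 and 97 expected counts. Ndufa3, a subunit of respiratory complex I, had 47.4%, 35.5% and 45.5% against 51.1%, 42.1% and 49.9%, and Mmp12, the macrophage elastase, 45.4%, 36.7% and 46.7% against 33.7%, 26.6% and 35.6%. Replicate 2 stands apart from the other libraries in all 3 genes, higher for Vps29 and lower for Ndufa3 and Mmp12, and the remaining genes of this kind are Lilrb4a and Arf4.

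**Figure D5:**
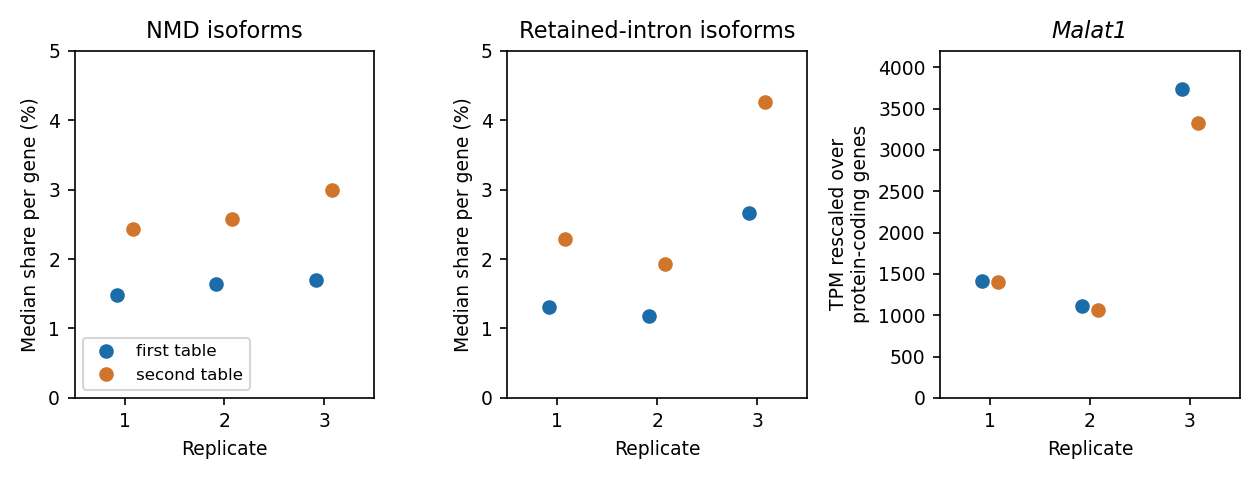
Median NMD share per gene and median retained-intron share per gene (y axes, percent), and Malat1 in TPM after rescaling over protein-coding genes, in replicates 1 to 3, blue for the first table and orange for the second. The NMD median stays between 1.47% and 3.00%, while replicate 3 has the highest retained-intron median and the highest Malat1 in both tables.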

How the data were processed

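Transcript tables of 3 libraries of 1 group were used, grouped and numbered by their labels. Per the file headers and deposited notes, the first transcript table comes from transcriptome alignments and the second directly from the reads, on mm10 with GENCODE M21. Aligner, quantifier, versions and strandedness were not given in the sources used here. Without strand, reads of an overlapping antisense gene may be counted to an isoform. Both hold deposited expected or estimated counts, which are fractional where reads fit several isoforms, and deposited TPM values scaled to a fixed sum per library. The deposited FPKM values of the first table served as an alternative, and its deposited posterior mean TPM with interval bounds was only quoted.

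With Python 3.11.15, pandas 2.3.3 and NumPy 2.4.6, NMD shares were computed per gene as described in the report, and described by counts, medians and SDs over libraries, without tests. The share calculation was tested on simulated counts drawn directly onto isoforms. This tested the code only, since reads shared between isoforms and transcript length were not simulated. The members and the 13 gene lists (378 symbols, all measured) were chosen with earlier results of these data known. Genes were named by a rule: the 10 highest shares at 10 TPM or more, the genes of the 10 isoforms of highest TPM, all SR proteins, SR kinases and NMD factors that passed, the 3 highest of each other list, and the 5 largest table differences and 5 largest SDs at 10 TPM or more. This named 61 genes, of which the values of 1 are not reported here. Exon sequences are shown for 5 SR genes with a mean share of at least 2% and 3 genes of the highest shares. Alternatives were each library left out, other limits and thresholds, 1 table, counts, FPKM, a pseudocount, rescaling over protein-coding genes and a minimum isoform length. Figures were drawn with matplotlib 3.10.9.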

Additional observations from a re-analysis of the deposited data

How the results depend on the processing

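Leaving out each library in turn kept every count of isoforms or genes within 1.5 times of the reported value. By the same step 3 of 10 list medians moved by more than 1 SD without replicate 1 and 2 without replicate 3. The class share, the median share per gene and the shares of single genes are means over libraries, which leaving out 1 of 3 cannot move by 1 SD. For the median share only the set of passing genes also changed slightly. For them this step is therefore no check. The other settings moved values as follows. NMD isoforms detected in the first table, the second and both were 655, 367 and 312 at a limit of 0.5 TPM, 90, 31 and 23 at 5 TPM, 2187, 2790 and 2038 above 0, and 1019, 1204 and 865 after rescaling TPM over protein-coding genes. The class's share of protein-coding TPM became 1.14% and 1.32% by counts, and 1.47% and 1.69% with only isoforms of at least 500 bases. The median share per gene, 1.60% and 2.67% as a mean over libraries, became 0.817% and 1.42% in genes of at least 5 TPM, 0.694% and 1.25% by counts and 3.02% and 6.17% with a pseudocount of 0.1 TPM, and 1.38% in the first table for genes above 0 TPM. Genes at 10% or more, 324 as reported, were 85 of 614 at a gene TPM of at least 5 (13.8%), 557 of 3640 above 0 (15.3%) and 502 of 3184 after rescaling (15.8%), 501 at a threshold of 5% and 181 at 20%. Counts gave 250 genes, of which 230 are among the 324. The second table alone gave 63 genes at 50% or more, against 37. The number of lists with a median above that of all genes, 5 of 10, was 7 by counts, 6 with the first table only and 5 to 6 with a library left out. Of the 61 named genes, 38 moved by more than 1 SD by counts and 35 with either table alone. With a library left out 0 moved, which had to be so for means of 3 libraries. No paired analysis was possible because there is 1 group. Depth limits the share of genes whose NMD isoforms hold few counts.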
